A study of Mus musculus with 7 samples.

Results

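ATAC-seq reads out open chromatin, because a transposase inserts sequencing adapters only where DNA is accessible. Of 119215 regions in the Dll1+ and Dll1- peak lists, 1400 were distal regions with a very high peak in both. They were chosen by the deposited fold enrichment itself. Rows of both lists that overlapped or touched were merged, and 79153 merged regions held rows from both. A shared region was distal when its midpoint lay more than 1000 bp from every protein-coding transcription start site (TSS), which left 64910 regions. A member had a highest fold enrichment at or above the 95th percentile of all shared regions in each list, which 1400 of the 64910 distal regions (2.16%) met. Fold enrichment, or fold, sets the reads at a summit against the local background and was deposited by the authors. Where a pair of values is given, Dll1+ comes first and Dll1- second. The folds at the 95th percentile were 18.50 and 18.53.

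The cells came from spontaneous mammary tumours of PyMT; Dll1-mCherry mice. The MMTV promoter drives the polyoma middle T oncoprotein in mammary epithelium, and mCherry reports the Notch ligand gene Dll1 from a bacterial artificial chromosome. Every sample carried both transgenes, and all mice for tumour studies were on a C57BL/6 background per the study's methods. The age at collection was not given in the sources used here. Cells with CD45, CD31 or Ter119, which mark blood cells, endothelium and red cells, were removed in the sort, and the rest were divided by mCherry into Dll1+ (3 samples) and Dll1- (4 samples). The 7 samples came from 4 tumours, 3 of which gave both populations. Each list pooled the samples of its group, so no value could be set against the spread between samples and no p-value was computed. Fewer cells with an open site and a less open site in each cell cannot be told apart in such pooled lists.

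Regions that cover a TSS were used to check the tissue. All 8 luminal markers (Krt8, Krt18, Krt19, Epcam, Cdh1, Elf5, Ehf and Gata3) had a region over a TSS in both lists. Of 4 basal markers, Acta2 had one in both lists, and Krt5, Krt14 and Trp63 had none in either. The blood markers Ptprc, Cd3e and Itgam had none in either list. Among 4 endothelial markers, Kdr had one in both lists. Among 4 fibroblast markers, Pdgfra had one in both lists and Col1a2 had one in the Dll1- list.

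Distal open regions are where enhancers and insulators are found. Enhancers are bound by sequence-specific factors and act on promoters over distance. AP-1, a dimer of Jun and Fos family proteins, binds many enhancers that open in growing and stressed epithelial cells. GRHL factors open enhancers of epithelial junction genes, C/EBP factors act in differentiation and stress, TEAD factors carry the output of the Hippo pathway, and CTCF marks insulators and loop ends. Nuclear chromosomes also carry old copies of mitochondrial DNA, and the mitochondrial genome itself is not wrapped in nucleosomes and is read heavily in ATAC-seq.

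The sequences of the strongest members were examined first, in windows of 201 bp that reach 100 bp to each side of the highest Dll1+ summit. Sequences are from the RefSeq GRCm38.p6 genome, plus strand. The first 4 are shown because an unbroken part of each is identical to the mitochondrial genome, and capitals mark the longest such run. They lie at chr9:24745086-24745286, chr2:69355498-69355698, chr3:94334536-94334736 and chr10:96077509-96077709 and are named by the nearest protein-coding gene.
Tbx20: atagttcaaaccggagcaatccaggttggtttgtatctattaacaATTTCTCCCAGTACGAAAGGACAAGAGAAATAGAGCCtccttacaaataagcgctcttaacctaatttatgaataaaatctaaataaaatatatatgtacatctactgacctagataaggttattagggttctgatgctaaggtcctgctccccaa
Abcb11: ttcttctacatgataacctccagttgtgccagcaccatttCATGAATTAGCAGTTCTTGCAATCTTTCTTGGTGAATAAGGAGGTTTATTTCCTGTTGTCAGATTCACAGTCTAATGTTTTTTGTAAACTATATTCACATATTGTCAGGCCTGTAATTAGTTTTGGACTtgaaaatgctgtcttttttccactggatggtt
Them5: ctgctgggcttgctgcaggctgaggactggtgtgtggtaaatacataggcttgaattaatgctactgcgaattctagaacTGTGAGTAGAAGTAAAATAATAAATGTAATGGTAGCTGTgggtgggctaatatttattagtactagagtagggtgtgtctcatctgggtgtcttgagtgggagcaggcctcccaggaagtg
Gm5426: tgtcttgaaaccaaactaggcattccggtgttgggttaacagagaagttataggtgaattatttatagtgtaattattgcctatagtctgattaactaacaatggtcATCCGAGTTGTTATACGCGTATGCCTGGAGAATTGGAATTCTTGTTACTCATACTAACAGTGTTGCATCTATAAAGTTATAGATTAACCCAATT

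The next 6 are the highest 3 members with the AP-1 consensus and the highest with each of GRHL, TEAD and CTCF, shown because these consensus sequences are compared below, and capitals mark each copy. Flrt3, Trib2 and Cited2 hold the AP-1 consensus TGAGTCA or its reverse complement and lie at chr2:140790472-140790672, chr12:15566170-15566370 and chr10:16589504-16589704. Gpr149 holds the GRHL consensus AACCNGTT at chr3:62801143-62801343, Pi15 the TEAD consensus ACATTCC at chr1:17506834-17507034, and Neil3 the CTCF consensus at chr8:53607165-53607365.
Flrt3: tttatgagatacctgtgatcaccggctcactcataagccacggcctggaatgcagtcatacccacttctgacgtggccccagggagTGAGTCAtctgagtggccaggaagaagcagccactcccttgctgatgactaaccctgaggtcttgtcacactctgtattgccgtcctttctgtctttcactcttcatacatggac
Trib2: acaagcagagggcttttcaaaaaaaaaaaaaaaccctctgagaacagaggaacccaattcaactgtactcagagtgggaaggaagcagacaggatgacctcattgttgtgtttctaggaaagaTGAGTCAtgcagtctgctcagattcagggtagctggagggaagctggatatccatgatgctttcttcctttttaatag
Cited2: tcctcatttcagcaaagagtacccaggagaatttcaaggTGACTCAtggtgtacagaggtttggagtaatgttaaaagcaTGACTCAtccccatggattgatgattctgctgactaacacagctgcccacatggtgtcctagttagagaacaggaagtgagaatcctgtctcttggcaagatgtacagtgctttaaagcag
Gpr149: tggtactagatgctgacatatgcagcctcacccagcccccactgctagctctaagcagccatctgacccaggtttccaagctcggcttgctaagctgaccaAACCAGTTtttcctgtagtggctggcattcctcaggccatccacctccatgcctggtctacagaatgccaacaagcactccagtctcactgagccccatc
Pi15: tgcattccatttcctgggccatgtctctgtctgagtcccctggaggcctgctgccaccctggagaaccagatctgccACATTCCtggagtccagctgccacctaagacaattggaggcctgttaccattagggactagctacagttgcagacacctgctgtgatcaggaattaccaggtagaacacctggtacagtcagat
Neil3: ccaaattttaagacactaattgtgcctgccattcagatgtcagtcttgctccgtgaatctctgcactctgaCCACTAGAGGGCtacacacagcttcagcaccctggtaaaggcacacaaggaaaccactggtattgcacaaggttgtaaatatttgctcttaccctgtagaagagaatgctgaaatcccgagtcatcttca

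The member with the highest fold enrichment in both lists lay in an intron of Tbx20, a T-box gene known from heart development, at chr9:24745017-24745301. Its folds were 49.3 and 48.3, from 530 and 819 reads at the summit. These reads were recovered from the deposited fold and p-value under an assumed formula and stand against local backgrounds of 9.78 and 15.97 reads. The highest fold among all members without a mitochondrial match was 32.3 for Dll1+ and 36.1 for Dll1-, so the Tbx20 member stood apart in both. Of its window, 37 bp in a row were identical to positions 2554 to 2590 of the mitochondrial genome, in the 16S ribosomal RNA gene mt-Rnr2.

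**Figure D1:**
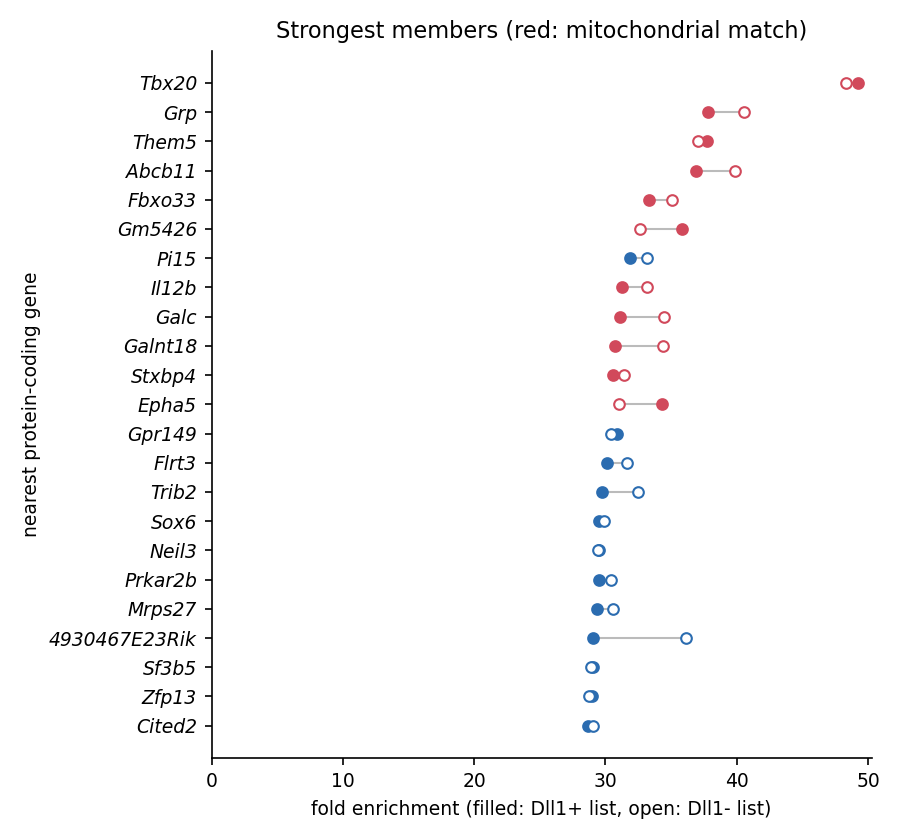
Fold enrichment on the x axis of the 12 strongest members and of the 12 strongest without a mitochondrial match, which share 1 region, named on the y axis by the nearest protein-coding gene. Filled points are the Dll1+ list and open points the Dll1- list, and members with a mitochondrial match are red. Tbx20 sits at 49.3 and 48.3, and 11 of the 12 strongest are red.

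Of the 12 strongest members, ranked by the lower of their percentiles in the lists, 11 shared at least 1 run of 20 identical bases with the mitochondrial genome. This match was looked for after the sequences had been seen. The exception was the Pi15 member at chr1:17506558-17507148, 95048 bp upstream of a gene for a secreted peptidase inhibitor, with folds of 31.9 and 33.2. Among all members, 19 of 1400 (1.36%, 95% Wilson interval 0.871 to 2.11%) had a match, against 21 of the 63510 other shared distal regions (0.0331%, interval 0.0216 to 0.0506%). The ratio of these shares was 41.0 (95% interval 22.1 to 76.2). All intervals cover counting error only, and regions are not replicates of a condition. The excess sat at the very top, with 14 of the 216 members above the 99th percentile matched (6.48%) and 5 of the 1184 from there down to the 95th (0.422%).

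The matched members were narrow. Their width ranged from 202 to 636 bp, with a median of 285 bp, against a median of 689 bp for members without a match. The longest identical run ranged from 21 to 129 bp with a median of 41 bp. The run of 129 bp lay in the member 12986 bp upstream of Abcb11, a bile salt export pump gene, at chr2:69355467-69355736, with folds of 36.9 and 39.9. The matching positions, 11514 to 11642, covered the end of ND4, a subunit gene of respiratory complex I, and 2 transfer RNA genes, TrnH and TrnS2. At chr10:96077454-96077956, near Gm5426, a run of 94 bp matched mt-Rnr2, and the folds were 35.9 and 32.7.

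Further matched members are given as examples, named by the nearest protein-coding gene. The Them5 member, in an exon of a pseudogene at chr3:94334500-94334756, had folds of 37.7 and 37.1 and a run of 39 bp from ATP6, a subunit gene of ATP synthase. The Il12b member at chr11:44387122-44387329 had folds of 31.2 and 33.2 and a run of 34 bp from COX2, a cytochrome oxidase subunit gene. The Galc member at chr12:97061655-97061862 lay 1197700 bp from the nearest protein-coding TSS and had folds of 31.1 and 34.5 with a run of 122 bp from the control region. Over the 19 members the longest runs fell in 11 different genes or gene groups or in the control region, with 3 in mt-Rnr2 and 3 in the control region. Of the 19, 9 lay within 1000 bp of an annotated pseudogene TSS, against 18 of the 1381 members without a match.

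As a description of values that the rule used, the log2 ratio of Dll1+ to Dll1- fold in the matched members, centred on the median of all shared regions, had a median of -0.02, within a range of -0.19 to 0.21. The summits of both lists lay at most 8 bp apart. None of the 19 held the AP-1 or the CTCF consensus, and their median GC content was 37.3%, against 50.3% for the members without a match. Of the 19, 2 had at least 50% of their 24-base words at several places on the chromosomes. Whether reads of the mitochondrial genome had been placed at these regions was not tested, since the lists hold no reads. Each result below is therefore also given without them where they change it.

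**Figure D2:**
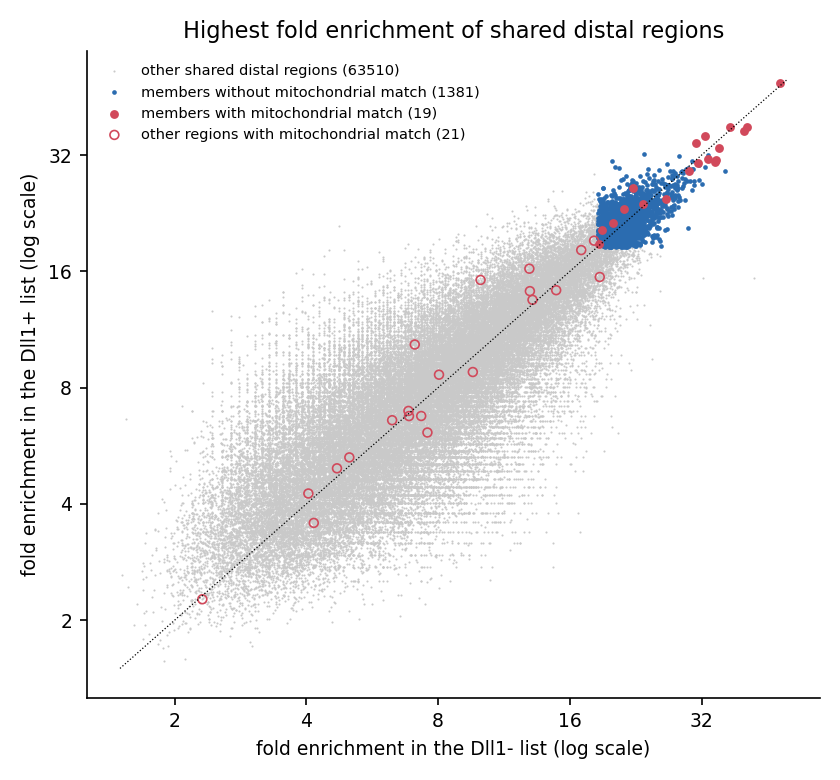
Highest fold enrichment in the Dll1- list (x axis, log scale) and the Dll1+ list (y axis, log scale) of each shared distal region, with the dotted line at equal values. Blue points are the 1381 members without a mitochondrial match, filled red points the 19 with one, and open red circles the 21 other regions with one, so the rule cuts out the upper right corner and red points fill its far end.

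Values of the members, which the rule fixed, are given as a description. The Dll1+ folds ranged from 18.5 to 49.3 with a median of 21.6, and the Dll1- folds from 18.5 to 48.3 with a median of 21.3. The medians of the other shared distal regions were 7.10 and 6.84. The reads at the summit had medians of 206 and 322 in members and of 47 and 77 in the other regions. The local background was also higher in members, at medians of 8.47 and 13.8 reads against 4.95 and 9 reads. Members just inside the threshold lay at chr4:43798685-43799435 near Olfr156 (18.5 and 21.3), chr6:122532753-122533485 near Mfap5 (21.9 and 18.5) and chr4:11352913-11353574 near Dpy19l4 (19.5 and 18.5). Regions just outside lay near Gab1 (21.4 and 18.5), Insr (18.5 and 21.1) and Tspan9 (18.5 and 20.5). The threshold thus cut a continuous range.

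The rule also left out regions that reached the percentile in 1 list. Of 2256 distal regions at or above the 95th percentile in the Dll1+ list, 62.1% were members, and of 2071 in the Dll1- list, 67.6% were. The regions left out lay close below the threshold in the other list, with median lower percentiles of 91.0 and 91.7. Another 1420 shared regions met both percentiles but lay near a protein-coding TSS, so members made up 49.6% of the 2820 strongest shared regions of any position.

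The strongest members without a mitochondrial match, chosen after that match had been seen, are given next. Behind Pi15 came a region in an intron of Macrod2, 119113 bp upstream of Flrt3, a gene for a membrane protein of cell adhesion, at chr2:140790374-140790790 with folds of 30.2 and 31.6. The third lay 196170 bp upstream of Gpr149, an orphan receptor gene, at chr3:62801040-62801579 with folds of 30.9 and 30.4. The fourth lay 250582 bp downstream of the TSS of Trib2, a pseudokinase gene, at chr12:15565897-15566508 with folds of 29.8 and 32.5. These 3 regions lay more than 100000 bp from every protein-coding TSS, and all were single peaks with 1 summit in each list.

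Other high members lay inside genes or between them. A region at chr7:115844307-115844881 was 1511 bp inside Sox6, a transcription factor gene, with folds of 29.5 and 29.9. The region at chr8:53607071-53607531, in an intron of the DNA repair gene Neil3, had folds of 29.5 and 29.5 and held the CTCF consensus. The intergenic member near 4930467E23Rik at chr8:19784453-19785309 differed more, with folds of 29.1 and 36.1, and 76.4% of its 24-base words lay at several places on the chromosomes. In all, 13 members (0.929%) had at least 50% of such words, against 0.783% of the other regions, a ratio of 1.19 whose interval (0.686 to 2.05) spans 1.

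Consensus sequences were not used by the rule, so they could be compared between the 1400 members and the 63510 other shared distal regions. Either strand was searched for 19 consensus sequences within 100 bp of the summit. Of these, 4 were held by a larger share of members, 1 by a smaller share, and 13 had a ratio whose 95% interval spans 1. The remaining one, that of the glucocorticoid receptor (GR), was held by 0 of 1400 members, which allows a share of up to 0.214% by a limit of 3 counts (0.274% by the Wilson interval), against 0.329% of the others. The intervals are not adjusted for the 19 comparisons. At least 1 of the 19 was present in 1009 members, and 27.9% of members and 33.3% of the others held none.

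AP-1 had the highest ratio and the largest difference in share. Its consensus TGAGTCA was held by 448 members (32%, 29.6 to 34.5%) and by 16.4% of the others (16.1 to 16.7%), a ratio of 1.95 (1.80 to 2.11). The same letters reversed without complementing, which have the same base composition, were in 5% of members and 4.31% of the others. With the others weighted to the GC content of the members, the ratio was 1.97 (1.82 to 2.13). Members with 2 or more copies made up 4.79%, against 1.41% of the others. The Cited2 member shown above holds 2 copies, and the Flrt3 and Trib2 members hold 1 each.

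**Figure D3:**
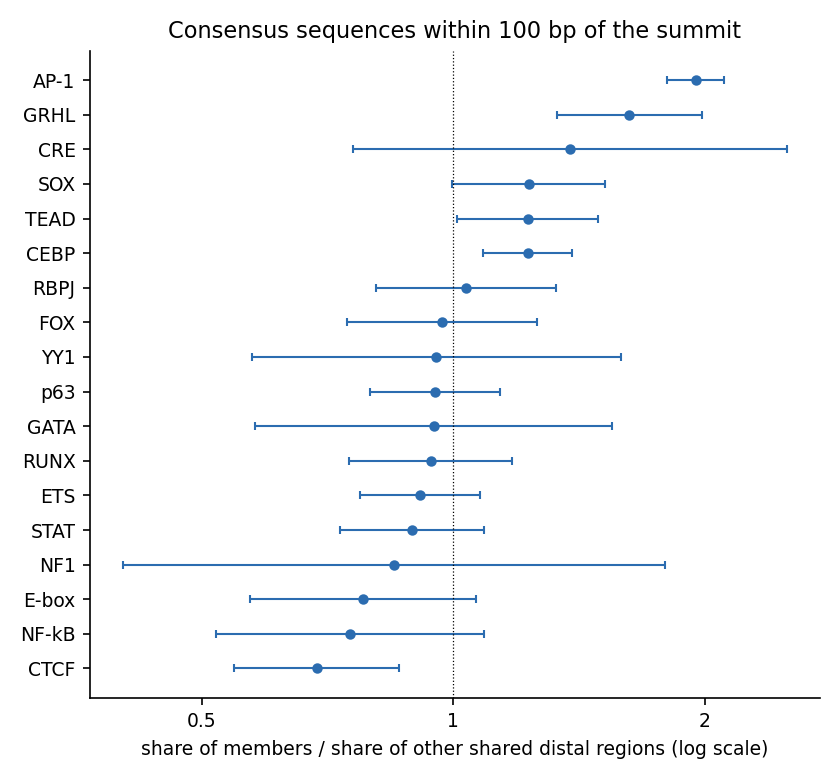
Share of members over share of other shared distal regions that hold each consensus sequence within 100 bp of the summit (x axis, log scale), with 95% intervals, one consensus per line. AP-1 at 1.95 and GRHL at 1.62 lie above 1 with their intervals and CTCF at 0.686 below, and GR is left out because no member held it.

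GRHL had the next highest ratio, with its consensus in 6.64% of members (5.45 to 8.07%) and 4.09% of the others, a ratio of 1.62 (1.33 to 1.98). The reversed letters were in 2.93% and 2.81%. The strongest GRHL members were the Gpr149 region, a region 470038 bp upstream of Cited2 with folds of 26.9 and 32, and one 8406 bp upstream of Sf3b5 with folds of 26.5 and 27.8. The C/EBP consensus TTGCNNAA was in 15.6% of members and 12.7% of the others, a ratio of 1.23 (1.09 to 1.39). Among members above the 99th percentile that ratio was 0.939 (0.655 to 1.35), an interval that holds both 1 and the ratio over all members. With regions ranked by −log10 p the C/EBP ratio was 0.909 (0.756 to 1.09), so its direction turned with the value used for ranking. The TEAD consensus was in 6.93% against 5.64%, a ratio of 1.23 (1.01 to 1.49). With windows on the Dll1- summits the TEAD ratio was 1.22 with an interval that reaches below 1 (0.9985 to 1.48), so this call rests on the choice of summit.

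CTCF went the other way. Its consensus, a 12-base core with variable letters, was in 72 members (5.14%, 4.10 to 6.43%) and in 7.498% of the others (7.30 to 7.71%), a ratio of 0.686 (0.547 to 0.860). The ratio was 0.199 (0.116 to 0.342) with regions ranked by −log10 p, and 0.745 with an interval that spans 1 (0.430 to 1.29) at the 99th percentile. When centred on the summits, the CTCF sites of members also lay farther out, at a median of 24.5 bp from the summit against 14.5 bp in the others, and 51.4% against 72.0% lay within 25 bp. AP-1 sites lay at a median of 29 bp in members and 28 bp in the others. AP-1 and CTCF seldom met in a member: CTCF was in 1.56% of the 448 members with AP-1 and 6.83% of the 952 without.

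**Figure D4:**
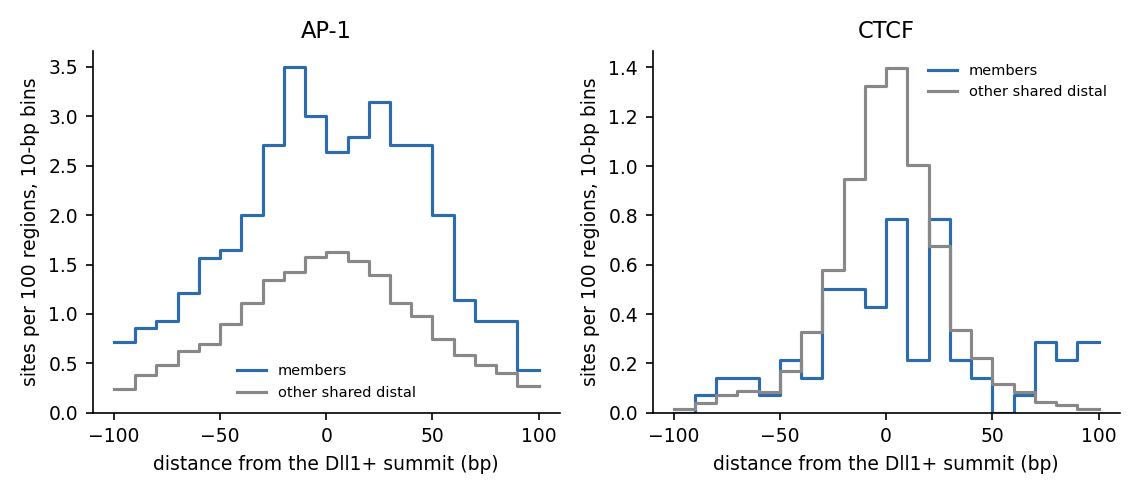
Sites of the AP-1 and CTCF consensus per 100 regions in bins of 10 bp (y axis) by distance from the Dll1+ summit (x axis), for members (blue) and other shared distal regions (grey). AP-1 sites are more frequent in members in every bin, and the CTCF peak at the summit is lower in members.

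For the other factors the interval of the ratio spans 1. The ratio was 1.23 (0.998 to 1.52) for SOX, 0.752 (0.520 to 1.09) for NF-kB, whose factors drive inflammatory and survival genes, and 1.04 (0.809 to 1.33) for RBPJ, the DNA-binding partner of Notch. It was 0.913 (0.773 to 1.08) for ETS, 0.940 (0.750 to 1.18) for RUNX, 0.969 (0.746 to 1.26) for FOX, 0.951 (0.796 to 1.14) for p63 and 0.948 (0.579 to 1.55) for GATA. STAT stood at 0.891 (0.731 to 1.09), the E-box at 0.780 (0.571 to 1.07), CRE at 1.38 (0.758 to 2.51), YY1 at 0.954 (0.574 to 1.59) and NF1 at 0.849 (0.403 to 1.79). For the rarer ones the intervals leave room for sizeable differences in either direction. Some of these calls changed with the setting: SOX stood at 1.25 (1.01 to 1.54) with GC weighting, and CRE stood at 3.31 (2.02 to 5.45) and GATA at 0.285 (0.0918 to 0.883) when regions were ranked by −log10 p, a setting chosen after seeing the data.

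The AP-1 share grew along the whole range of heights. Among shared distal regions whose lower percentile was at most 10, 13.0% held the consensus, rising to 15.2% between 25 and 50, 21.9% between 75 and 90 and 30.5% between 90 and 95. It was 31.8% (29.2 to 34.5%) in members up to the 99th percentile and 33.3% (27.4 to 39.9%) above it. Of the 216 members above it, 14 had a mitochondrial match, and no matched member held the AP-1 consensus. CTCF did not follow height in that way: its share was 2.95% at the bottom, 9.50% between 25 and 50, 9.61% between 50 and 75, and 5.07% and 5.56% in the member bins. The GRHL share was 3.26% at the bottom and 6.25% and 8.80% in the member bins.

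**Figure D5:**
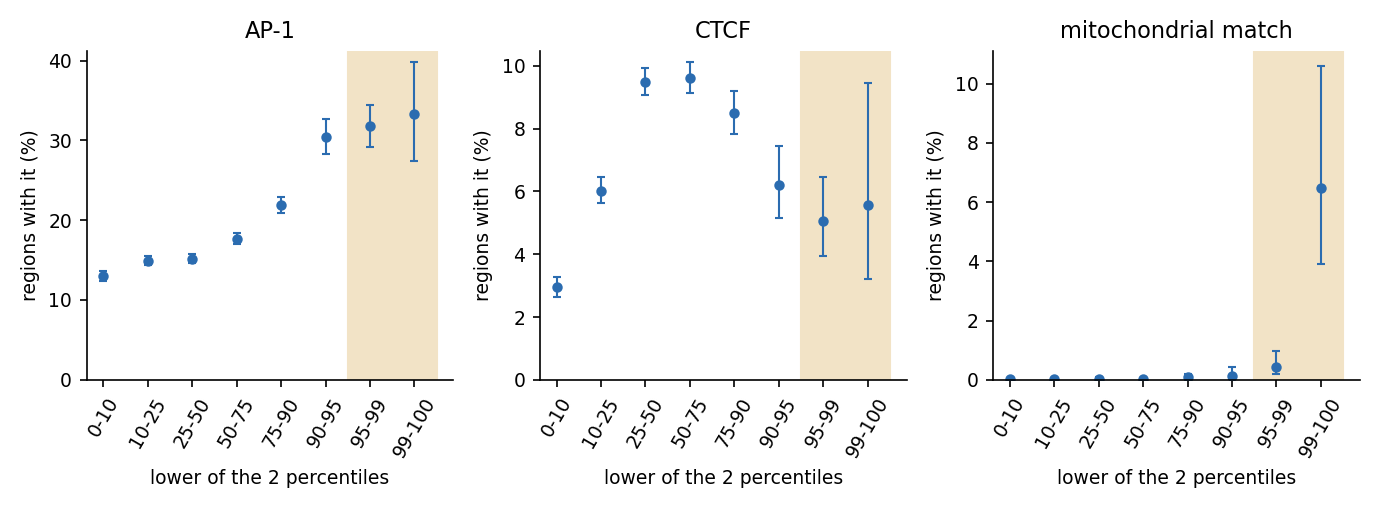
Share of shared distal regions (y axis, percent, with 95% Wilson intervals) that hold the AP-1 consensus, the CTCF consensus or a mitochondrial match, in bins of the lower of their percentiles (x axis). Shaded bins are the members. AP-1 rises from 13.0 to 33.3%, CTCF is highest in the middle at 9.61%, and mitochondrial matches reach 6.48% in the last bin.

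A count of all 8192 words of 7 bases, strands joined, made without any list of factors, put the AP-1 consensus first, with a difference of 15.6 percentage points. Of the next 5 words, 4 share 6 of its bases with 1 more base on either side, such as GAGTCAC and the word ATGACTC. The first word outside AP-1 was ACAAAGG, in 12.1% of members and 7.64% of the others, and AACAATG followed at 9.50% against 5.804%. Both words hold letters that SOX-type factors are known to read. AAGGAAA had the largest difference in the other direction, at 5.93% against 8.60%. The words were ranked by these same values and carry no test.

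Compared with the regions most like them, members held an intermediate AP-1 share. Among distal regions at or above the 95th percentile in the Dll1+ list alone, 15.5% of 856 held the AP-1 consensus, and the share in members was 2.06 times as high (1.73 to 2.45). Among those that reached it in the Dll1- list alone, 49.5% of 671 held it, and the share in members was 0.647 times that (0.581 to 0.721). CTCF was in 8.41% of the former and 4.32% of the latter. GRHL did not set members apart from either set, at 6.66% of the former and 5.96% of the latter, with ratios of 0.998 (0.726 to 1.37) and 1.11 (0.778 to 1.60). C/EBP was in 137 of 856 and 77 of 671, with ratios of 0.977 (0.804 to 1.19) and 1.36 (1.07 to 1.74), and TEAD in 7.36% and 6.41%, with ratios of 0.941 (0.694 to 1.28) and 1.08 (0.764 to 1.53). The 1420 strong regions near a protein-coding TSS held AP-1 in 3.03% and GRHL in 1.34%, and the cyclic AMP response element CRE (TGACGTCA, which cannot match the AP-1 word) in 3.87% against 0.786% of members. The CRE share in members was 0.203 times that (0.107 to 0.386).

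Between the lists, members were nearly equal in height. The log2 ratio of Dll1+ to Dll1- fold, centred on its median of 0.03 over all shared regions, lay between -0.25 and 0.21 in the middle 90% of members, against -0.74 and 0.80 in the other regions. The rule sets a floor in both lists and so favours equal values, and nothing is read from this. Past 1.5-fold after centring, 1 member was higher in Dll1+ and 0 in Dll1-, where 8.97% of all shared regions were past it toward Dll1+ and 7.43% toward Dll1-. That member lay at chr7:88097713-88098192, 180132 bp from the TSS of Ctsc, a lysosomal protease gene, with folds of 30.9 and 20.0 from 178 and 163 reads. At the other end stood a region 86141 bp from Vcan, a matrix proteoglycan gene, with folds of 20.8 and 29.8 from 130 and 461 reads.

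The same ratio by consensus is likewise a description of values that the rule used. The median centred log2 ratio was -0.06 in the 448 members with the AP-1 consensus and -0.0032 in the 952 without. In the other shared distal regions the medians were -0.23 with and 0.07 without. Members with CTCF had a median of 0.04, and those with GRHL and those with C/EBP one of -0.03 each. These medians are of regions from pooled lists, whose depths and sample numbers differ.

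Members lay farther from genes than the other shared distal regions. Their median distance to the nearest protein-coding TSS was 40983 bp (36688 to 44679 bp), against 29772 bp (29342 to 30179 bp). Within 10000 bp of one lay 12.7% of members and 22.4% of the others, and beyond 100000 bp 26.4% and 19.2%. The midpoint was intergenic in 50.4% of members (47.8 to 53.0%) and 39.4% of the others, a ratio of 1.28 (1.21 to 1.35). It was intronic in 43.6% and 54.4%, a ratio of 0.803 (0.756 to 0.852). Few midpoints fell in exons. Coding exons held 1.36% of members and 2.25% of the others, a ratio of 0.603 (0.385 to 0.946), and exons of non-coding genes held 3% and 2.14%, a ratio of 1.40 (1.04 to 1.90). Without the regions with a mitochondrial match the ratio for non-coding exons was 1.26 with an interval that spans 1 (0.916 to 1.74). With matched regions kept in, it was 2.81 (1.65 to 4.77) at the 99th percentile, where 14 of 216 members had a match. With them kept in and regions ranked by −log10 p, it was 2.74 (2.08 to 3.61). Neither of these was computed without the matched regions. The interval for coding exons also spans 1 at the 90th percentile (0.777, 0.595 to 1.01), at the 99th (0.207, 0.0293 to 1.46) and with regions ranked by −log10 p (0.722, 0.428 to 1.22).

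The start sites of genes that do not code for protein were more often close by. Such a TSS lay within 1000 bp of 98 members (7%, 5.78 to 8.46%) and 4.26% of the others, a ratio of 1.64 (1.35 to 2.00), which was 1.52 (1.24 to 1.87) without the regions with a mitochondrial match. With matched regions kept in, it was higher at the 99th percentile, at 3.24 (2.32 to 4.52), where 14 of the 216 members had a match. It was also higher with regions ranked by −log10 p, at 2.91 (2.42 to 3.49), where 13 of 866 had one. Neither was computed without the matched regions. Long intergenic RNA genes accounted for 38 of the 98 (2.71% of members against 1.45%) and processed pseudogenes for 19, of which 7 had a mitochondrial match. The ratio was 2.14 within 500 bp and 1.26 within 2000 bp, so the difference lay close to the start sites.

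The median GC content was 49.8% in both sets, and the CpG ratio of observed to expected had a median of 0.210 against 0.213. Windows with a CpG ratio of at least 0.6 made up 6.14% against 5.02%, 1.22 times the share (0.9935 to 1.505). That figure was 1.35 (1.18 to 1.55) at the 90th percentile, 1.84 (1.21 to 2.80) at the 99th and 2.23 (1.84 to 2.70) with regions ranked by −log10 p. Soft-masked repeat sequence was somewhat rarer, with at least 1 masked base in 42.4% of member windows and 50.1% of the others, a ratio of 0.846 (0.796 to 0.900). At least 50% masked bases were found in 0.571% against 2.13%. The summits of both lists lay within 10 bp of each other in 70.8% of members and 39.4% of the others. Members also had more reads at the summit, whose part in this was not tested.

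Members were spread over the genome. Each of the 19 autosomes and X held some, from 1.38% of the shared distal regions of chromosome 11 to 2.73% of those of chromosome 3. Neighbouring members lay a median of 1038834 bp apart, and joining members by the distance commonly used to stitch neighbouring enhancers gave 11 pairs and no longer run. The highest pair lay near Sf3b5, a splicing factor gene, at chr10:12996450-13008952, with folds of 26.5 and 27.8 in its first and 29.0 and 28.9 in its second region. Others lay near Serbp1 at chr6:67158607-67170782, Bmp6 at chr13:38312075-38320901 and Cdk19 at chr10:40372153-40380113. The 1400 members had 1232 different nearest protein-coding genes, 1089 of which had a single member.

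The most members, 4 each, lay near Cited2, Usp25, Tgif1 and Zbtb20, which had 60, 31, 24 and 44 shared distal regions. The counts were not adjusted for how many regions a gene has. Cited2, a coactivator gene that responds to hypoxia, had its 4 between 340275 and 1133657 bp upstream, at folds of 28.7 and 29.0, 26.9 and 32, 21.4 and 20.2, and 18.8 and 22.6. Of these, 3 held the AP-1 consensus and 1 the GRHL consensus. Usp25, a deubiquitinase gene, had 4 with folds from 19.2 to 27.8, 2 of which held AP-1. Tgif1, a repressor gene of TGF-beta signalling, had 4 with folds from 18.6 to 28.00, none of them inside Tgif1: 2 lay in introns of Dlgap1. Zbtb20, a zinc finger repressor gene, had 4 with folds from 18.7 to 26.1, all 4 at least 39561 bp from its TSSs. Another 17 genes had 3 each, of which Galc (3 of 6 shared distal regions, or 2 without the one with a mitochondrial match), Arid1b (3 of 41), Gja1 (3 of 19) and Rasa1 (3 of 16) held the highest members. Nearest genes are positional labels and say nothing of which gene a region acts on.

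Gene lists chosen for mammary tumours held few members each. Of 316 shared distal regions nearest to 30 luminal genes, 3 (0.949%, 0.323 to 2.75%) were members, namely 2 near Gata3, the luminal master regulator, and 1 near Trps1. The regions near Gata3 lay 953564 and 1149188 bp away, with folds of 21.7 and 20.0, and 19.9 and 24.1. The basal list had 2 of 159 (near Snai2 and Id4), the epithelial junction list 2 of 232 (near Pkp2 and Tjp1) and the ErbB list 1 of 175 (near Lrig1). Their intervals all include the 2.16% of all shared distal regions, and the median lower percentile of the listed regions was 25.7 for luminal, 32.6 for basal and 29.9 for junction genes, beside 36.4 over all.

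Signalling lists likewise had shares whose intervals all include 2.16%, from 0.763% (0.210 to 2.74%) for Notch genes to 2.72% (1.17 to 6.20%) for hypoxia genes. Notch genes had 2 of 262, near the target Hes1 (folds 19.6 and 19.8, with AP-1, TEAD and C/EBP) and the coactivator Maml3 (21.5 and 18.8). NF-kB genes had 3 of 226, near the deubiquitinase Cyld (26.2 and 25.6), the adaptor Traf6 (22.4 and 22.7) and the survival gene Birc3 (20.9 and 22.8). AP-1 genes had 3 of 113, near Atf3, Fosl2 and Jun, and Hippo genes 3 of 203, of which the one near Ccn1, a TEAD target, held both AP-1 and TEAD. Hypoxia genes had 5 of 184, near Egln3, Epas1, Hk2 and, with 2, Pfkfb3. TGF-beta and BMP genes had 9 of 454, 4 of them nearest to Tgif1 and 1, near Bambi, with a mitochondrial match.

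Of the lists of other cell types, blood was the one whose interval lay above the 2.16% of all shared distal regions, while those of fibroblast (3.39%, 1.33 to 8.39%) and endothelial genes (2.74%, 0.755 to 9.45%) include it. Fibroblast genes had 4 of 118 (2 near Postn, 1 each near Twist1 and Zeb1), endothelial genes 2 of 73 (near Emcn and Vwf) and blood genes 3 of 30 (10%, 3.46 to 25.6%), all 3 near Ptprc, the gene of CD45. These lay 130674 to 276728 bp from the Ptprc TSS, which had no region in either list, with folds of 22.7 and 25.2, 21.1 and 22.1, and 19.5 and 18.6. The blood interval rests on Ptprc, with 3 of its 11 shared distal regions, out of 8 blood genes that had any such region. It treats neighbouring regions as independent and is not adjusted for the number of lists. CD45 was a gate of the sort. Dll1 and Nfkb1, which the study also discusses, had no member by fold. With regions ranked by −log10 p, Dll1 had 3 members and Nfkb1 had 0. The −log10 p-values of the highest Dll1 region, 1334 and 2123, were above those of every member by fold, which reached 864 and 1409. Its local backgrounds were also high, at 87.0 and 141.5 reads, where members had medians of 8.47 and 13.8. What raised reads and background there was not tested. The 15 shared distal regions of Dll1 reached a lower percentile of at most 93.7, at chr17:15325642-15326829 with folds of 17.9 and 17.7 from 1572 and 2521 reads. Next came chr17:15365541-15366306, at percentile 97.04 in the Dll1+ list and 92.39 in the other, with folds of 20.2 and 17.0. The 21 of Nfkb1 reached at most 81.3, with folds of 13.1 and 15.9, followed by one with folds of 10.1 and 8.88.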

How the data were processed

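Sorted tumour cells of 7 samples were profiled by ATAC-seq. The authors processed the replicates of each group together with the ENCODE ATAC-seq pipeline and deposited its optimal peak list per group, on mm10 (GRCm38) per the submitters' processing notes. Aligner, caller and thresholds are not given in the sources used here, and the pooling means that depth per sample is unknown. The deposited fold enrichment of each row was taken as a ratio of summit reads to local background, and the deposited −log10 p-value and −log10 q-value belong to the same summit. The q-values and the deposited score, which is capped, were not used. The lists held 132872 (Dll1+) and 148923 (Dll1-) rows.

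Members and gene lists were chosen with earlier results of these data known. Regions were annotated with the basic GENCODE M21 set (protein-coding genes, all transcripts), and class was taken at the midpoint. Coordinates are 1-based. Since the caller is not given, summit reads rest on an assumed formula and were recovered by solving fold = (reads + 1)/(background + 1) together with a Poisson p-value, with a tolerance of 0.01 or 0.0001 of the value, which worked for all shared regions but 1. Exact words of 20 bases shared with the mitochondrial genome (16299 bp) were searched in windows of 201 bp. Shares carry 95% Wilson intervals, ratios of shares 95% log intervals and medians 95% order-statistic intervals. One of the blood markers examined is not reported here. Scripts were tested on simulated lists. Python 3.11.15, pandas and scipy were used. Regions named were the 12 with the highest lower percentile, 3 on each side of the threshold, the highest with each described consensus, up to 3 per gene list, the 8 genes with most members (ties by their highest member), Dll1, Nfkb1 and the longest runs. The 12 without a mitochondrial match and the regions most unequal between the lists were added after their values were seen. Alternatives changed percentile, ranking value, TSS set and distance, overlap, window, summit, GC weighting and centring.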

Additional observations from a re-analysis of the deposited data

How the results depend on the processing

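The number of members depended on the rule: it was 3140 at the 90th percentile, 216 at the 99th, 2147 with percentiles taken among distal regions only and 866 with regions ranked by −log10 p in place of fold. Of those 866, 457 (52.8%) were also members under the main rule, which is 32.6% of the 1400. The other definitions of TSS, distance, overlap and ties gave 1302 to 1402. The AP-1 ratio stayed between 1.83 and 2.09 with its interval above 1 under every alternative tried, the GRHL ratio between 1.58 and 2.13, and the intergenic ratio between 1.12 and 1.45. The CTCF ratio was 0.199 with regions ranked by −log10 p, and at the 99th percentile it was 0.745 with an interval that spans 1 (0.430 to 1.29), where fewer members remained. The C/EBP ratio turned to 0.939 at the 99th percentile and to 0.909 with regions ranked by −log10 p, and the cause was not tested. The TEAD ratio was 1.14 (0.688 to 1.90) at the 99th percentile. With regions ranked by −log10 p, a setting added for the consensus ratios after seeing the data, RUNX stood at 0.685 (0.489 to 0.958) and STAT at 0.743 (0.564 to 0.979). SOX was 1.26 (1.10 to 1.46) and GATA 0.677 (0.458 to 0.9985) at the 90th percentile, SOX 1.25 (1.01 to 1.54) without repeated windows, and the E-box 0.598 (0.366 to 0.976) within 50 bp of the summit. The share with a masked base had a ratio of 0.899 (0.775 to 1.04) at the 99th percentile. The ratio for non-coding TSSs lay between 1.26 and 3.24, highest at the 99th percentile, with its interval above 1 throughout. Leaving out regions with a mitochondrial match or repeated windows, an alternative chosen after seeing the data, changed no call among the ratios of AP-1, CTCF, GRHL, C/EBP, introns, intergenic regions and non-coding TSSs, while non-coding exons lost theirs without mitochondrial matches. With words of 30 bases in place of 20, 16 members had a mitochondrial match. Of 223 comparisons with an alternative, 196 kept their call or stayed within 1.5 times the main count. No paired analysis was possible because each list pools the samples of a group, and no sample could be left out for the same reason. Depth per sample is unknown, and the precision for a rare consensus is set by its count, which was 7 members for NF1.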

Other observations

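Matches to the mitochondrial genome also occurred in shared distal regions of modest height. Of 40 shared distal regions with a match, 19 were members and 21 were not, and 1 shared region near a protein-coding TSS had one. At chr1:24611464-24616258, near Col19a1, 4 shared regions had runs of 126 to 201 bp identical to mitochondrial DNA, and their folds in the Dll1+ list lay between 3.57 and 14.2. Near Gad2 on chromosome 2, 4 more had local backgrounds of 78.0 to 78.3 reads in the Dll1+ list, where the median background of members was 8.47. Summit reads of the highest of them, 550 (Dll1+) and 852 (Dll1-), exceeded those of the Tbx20 member (530 and 819), while its folds were 6.96 and 6.84 against 49.3 and 48.3. The order of these regions by fold therefore differed from their order by reads.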
